A study of Mus musculus with 4 samples.

Results

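The genes described here are 44 mouse genes of the synapse, chosen by symbol, of 22492 gene symbols measured. The 29 presynaptic members encode proteins of synaptic vesicles, of the fusion machinery and of the active zone, with the neurexins Nrxn2 and Nrxn3. The 15 postsynaptic members encode scaffold proteins, neuroligins and gephyrin. Genes were compared when they reached 1 FPKM in at least 1 of the 4 libraries, which 28 presynaptic and 15 postsynaptic members did. Rims1, an active zone scaffold gene, did not, with 0.551 to 0.852 FPKM over the 4 libraries, and is left out of every count below. The next lowest member, Syt2, peaked at 3.02 FPKM. FPKM scales the fragments of a gene by its length and by the mapped total of the library, so levels can be set side by side between genes.

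The RNA came from cultures of dissociated hippocampal neurons of newborn (P0) CD1 pups, an outbred strain, harvested after 11 days in vitro. Cultures were infected on day 4 with a lentivirus carrying a short hairpin RNA (shRNA) against Kdm6b, a demethylase of histone H3 lysine 27, or with the pLKO.1 vector lentivirus as control. On the day of harvest each kind of culture was either treated for 3 h with 50 µM bicuculline (the labels write 50µm) and 2.5 mM 4-aminopyridine (Bic/4AP) or left untreated. The first drug blocks inhibition through GABA-A receptors, the second blocks potassium channels, and the pair drives bursts of firing. The 4 groups are therefore shRNA with Bic/4AP, shRNA untreated, vector with Bic/4AP and vector untreated, with 1 library each and 1 hairpin sequence in all. No spread between cultures can be estimated, so no difference was tested, and what is said of a condition holds for 1 culture of it.

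At a chemical synapse the transmitter is packed into vesicles, which gather at the active zone and are primed by Unc13a. Bassoon and Piccolo are scaffolds of that zone. Vesicles fuse when the SNARE proteins of the vesicle (synaptobrevins, Vamp genes) and of the plasma membrane (Stx1a, Snap25) zip together after a synaptotagmin has sensed calcium. On the other side, Dlg, Dlgap and Shank proteins stack into the scaffold under glutamate receptors, and gephyrin anchors receptors at inhibitory synapses. Neurexins and neuroligins bind each other across the cleft.

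The sequence of the hairpin is shown because it defines the shRNA groups. The labels give a target of 21 bases, which had no exact match, on either strand, among 141767 transcripts of GENCODE mouse release M21. Its closest place in Kdm6b lies in the coding sequence (GRCm38, minus strand, chr11:69404988-69405008) and matches its first 18 bases. With positions counted from the 5′ end of the labelled target, the differences are C19A, T20G and C21T. Matching bases are in capitals.
labelled hairpin target: CTGTTCTTGAGGGACAAActc
Kdm6b transcript: CTGTTCTTGAGGGACAAAagt
Kdm6b itself stood at 4.83 FPKM with shRNA and Bic/4AP, 2.73 with shRNA untreated, 13.1 with vector and Bic/4AP and 6.74 with vector untreated. Its level was thus lower in both shRNA cultures than in the vector culture with the same treatment. The early response gene Fos, a marker of firing, stood at 765 FPKM with shRNA and Bic/4AP, 15.3 with shRNA untreated, 771 with vector and Bic/4AP and 12.5 with vector untreated.

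The synaptic genes ranged widely in level in these cultures, and some were strongly expressed. Snap25, the plasma membrane SNARE, had the highest mean level, at 429, 417, 383 and 452 FPKM in shRNA Bic/4AP, shRNA untreated, vector Bic/4AP and vector untreated cultures. Vamp2, the main vesicle SNARE of forebrain neurons, followed at 323, 334, 387 and 456 FPKM in the same order of cultures. Syp, the vesicle membrane protein synaptophysin, stood at 335, 371, 320.1 and 425 FPKM in that order. These 3 genes were within a factor of 1.5 of each other in every library and did not keep 1 order over the libraries, with Vamp2 first in the untreated vector culture and Snap25 first in the untreated shRNA culture. The postsynaptic members lay below these 3 genes in every library. Dlg4, the gene of the scaffold protein PSD-95, led them at 135, 154, 128 and 159 FPKM in that order. All other postsynaptic members stayed below 60 FPKM in every library. Some presynaptic members were lower still, as Syt2 had a mean of 2.66 FPKM and the lowest postsynaptic member, Dlgap2, one of 4.83 FPKM.

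Paralogs were far apart in level in some families. Of the synapsins, which tether vesicles to each other, Syn2 (157 to 209 FPKM over the 4 libraries) and Syn1 (119 to 146) stood well above Syn3 (3.34 to 4.96). The fast calcium sensor Syt1 stood at 188 to 225 FPKM, against 18.2 to 22.05 for Syt7 and 2.30 to 3.02 for Syt2, the sensor of fast inhibitory terminals. Vamp2 likewise exceeded Vamp1, which ranged over 14.9 to 19.04 FPKM. Within each of these families the ranges of the members did not overlap. In other families some did, as for Syngr1 (64.9 to 135 FPKM) and Syngr3 (84.5 to 117). The same held for Dlg1 (18.6 to 29.5 FPKM) and Dlg3 (22.3 to 36.4).

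**Figure D1:**
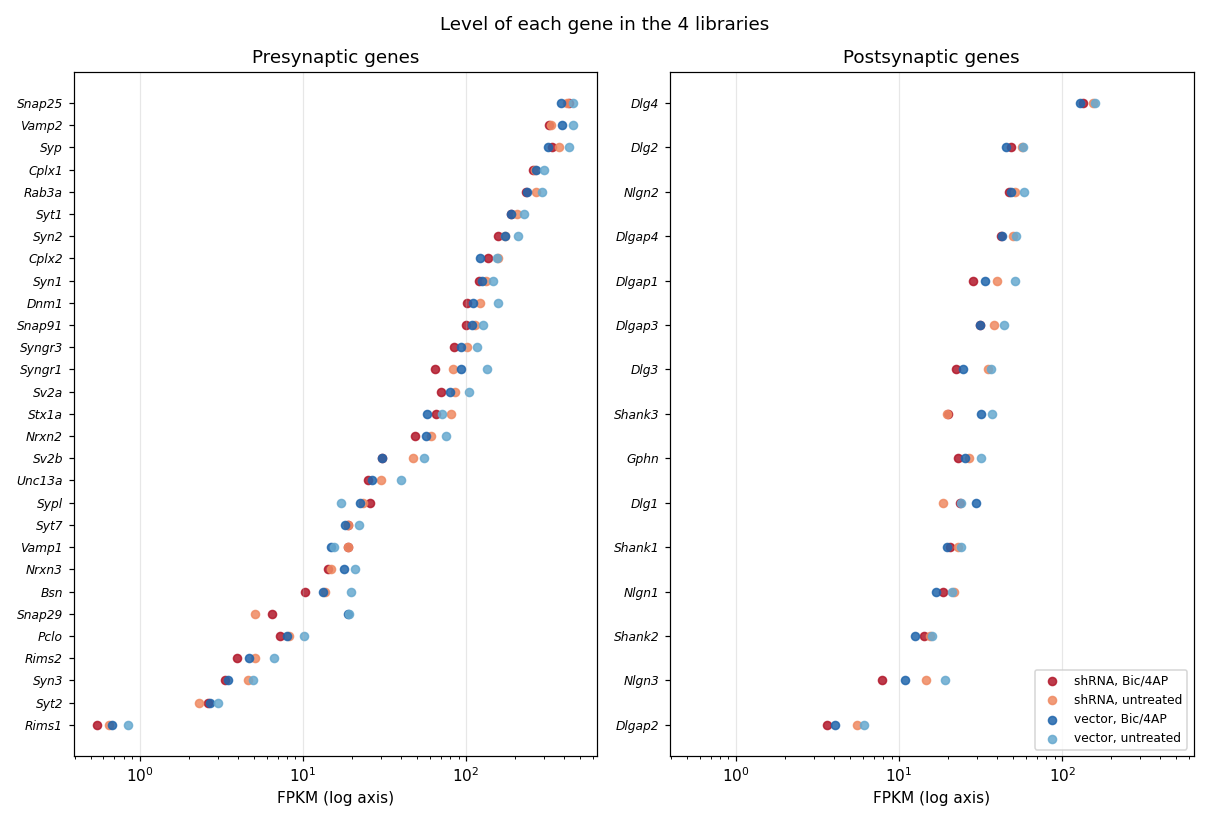
FPKM of the 44 genes on a log axis, presynaptic on the left and postsynaptic on the right, with 1 point per library and genes ordered by their mean. The point of the untreated vector culture lies to the right of the other 3 for most genes, and Snap29 and Shank3 show the 2 shRNA points set apart to the left.

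Most members were highest in the untreated vector culture. Of 43 members compared, 37 had their highest FPKM there, 24 of 28 presynaptic and 13 of 15 postsynaptic, against 28% of all 13458 genes compared. Of these, 25 were also lowest in the culture with shRNA and Bic/4AP, an order shown by 19.5% of all genes. Summed over the 29 presynaptic members, FPKM came to 2883 with shRNA and Bic/4AP, 3164 with shRNA untreated, 2984 with vector and Bic/4AP and 3683 with vector untreated. The 15 postsynaptic members summed to 486, 570.4, 506 and 638 FPKM in the same cultures. Both sides of the synapse therefore had the same order of cultures in their sums. In a sample of whole cultures, fewer neurons and less RNA per neuron cannot be told apart.

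The first comparison asked how synaptic genes stood after 3 h of firing in vector cultures. They were lower almost throughout, by a modest amount: 41 of 43 members lay below 0 in the difference of log2(FPKM + 1), Bic/4AP minus untreated, where 59.4% of all genes did. The median difference was -0.31 for presynaptic and -0.31 for postsynaptic members, against -0.07 for all genes compared and -0.04 for the 4713 genes with a mean FPKM of at least 20. In 38 members the authors' bounds of the 2 values did not overlap and Bic/4AP was lower, against 36.4% of all genes. Those bounds cover error within a library only. The median distance to the upper bound was 2.18% to 2.49% of the value over the libraries for members. For all genes at 5 FPKM and above it was 4.21% to 4.48%. Members thus had narrower bounds, and shares with bounds apart were not matched for level. A difference of 0.5 or more downward was seen in 8 members (18.6%, against 6.06% of all genes as deposited; 5 members with a pseudocount of 5 and 3 under median-ratio scaling) and of 1 or more, which is 2-fold, in none (0.267% of all genes). No member was higher by 0.5 or more (6.24% of all genes) or by 1 or more (2.18%).

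Sv2b, a vesicle glycoprotein gene, was lowest relative to rest. It stood at 30.7 FPKM with Bic/4AP and 55.3 untreated in vector cultures, a difference of -0.83, which ranked 101st from the lowest of all 13458 genes. Its paralog Sv2a stood at 79.9 FPKM with Bic/4AP and 104.0 untreated, a difference of -0.38. So both vesicle glycoprotein genes were lower, Sv2b by more.

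Nlgn3, a neuroligin gene, was the lowest postsynaptic member, at 10.9 FPKM with Bic/4AP and 19.2 untreated in vector cultures (-0.76). Nlgn1 and Nlgn2, the neuroligins linked to excitatory and inhibitory synapses, lay at -0.33 and -0.25. The difference in Nlgn3 was thus more than 2 times as large, on the log2 scale, as that of either paralog.

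Next came scaffold and release genes. Dlgap1, which links Dlg4 to the Shank proteins, stood at 33.6 FPKM with Bic/4AP and 51.5 untreated (-0.60). The vesicle priming gene Unc13a stood at 26.5 FPKM with Bic/4AP and 39.9 untreated (-0.57). Bsn, the gene of Bassoon, stood at 13.2 FPKM with Bic/4AP and 19.7 untreated (-0.54), whereas its partner Pclo lay at -0.32. Dlg3, Syngr1 (a vesicle membrane protein) and Dnm1, the dynamin that pinches off vesicles, were at -0.54, -0.53 and -0.51. These 8 genes thus span vesicle, active zone, retrieval and postsynaptic scaffold.

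The 2 members higher with Bic/4AP in vector cultures were Sypl and Dlg1. Sypl, a synaptophysin relative that is also expressed outside neurons, stood at 22.5 FPKM with Bic/4AP and 17.05 untreated (0.38). Dlg1, the gene of SAP97, stood at 29.5 FPKM with Bic/4AP and 24.1 untreated (0.28). In both the bounds of the 2 values did not overlap, as for 21.5% of all genes in the upward direction. Dlg2, Dlg3 and Dlg4 all lay below 0 in the same cultures, at -0.35, -0.54 and -0.31. Snap29 (-0.01) and Vamp1 (-0.06) were the members nearest to 0 on the lower side, and both lay above 0 under median-ratio scaling.

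The same response was then read in shRNA cultures, which share no library with the vector cultures. Of 43 members, 37 lay below 0, against 65.2% of all genes, and the 37 are the same genes that lay below 0 in both backgrounds (53% of all genes did so). The count was 32 under median-ratio scaling, where Vamp1, Vamp2, Syt7, Cplx1 and Nrxn3 lay above 0. The presynaptic median was -0.18 and the postsynaptic median -0.21, against -0.08 for all genes. Under median-ratio scaling, which sets the median of all genes near 0, they were -0.09 and -0.12. Bounds were apart with Bic/4AP lower in 34 members (37.3% of all genes), and 3 members were 0.5 or more lower (6.98%, against 4.25% of all genes), or 5 under common-sum scaling. No member was 1 or more lower (0.156%), 0.5 or more higher (5.01%) or 1 or more higher (2.06%).

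Nlgn3 was the lowest member there, at 7.88 FPKM with Bic/4AP and 14.7 untreated in shRNA cultures (-0.82, 76th from the lowest). Dlg3 stood at 22.3 FPKM with Bic/4AP and 35.2 untreated (-0.64), although the authors' bounds of the first value ran widely, over 17.96 to 26.65. Sv2b stood at 30.7 FPKM with Bic/4AP and 47.4 untreated (-0.61). These 3 were also among the 8 lowest of the vector comparison. Dlgap2 (-0.49) and Dlgap1 (-0.48) followed, both scaffold genes.

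On the other side, 6 members lay above 0 in shRNA cultures (34.8% of all genes). Dlg1 was highest, at 23.7 FPKM with Bic/4AP and 18.6 untreated (0.33). Snap29, a SNARE of the Snap25 family that serves membrane traffic in many cell types, stood at 6.47 FPKM with Bic/4AP and 5.10 untreated (0.29). Sypl (0.15), Syt2 (0.13), Snap25 (0.04) and Shank3 (0.01, below 0 under common-sum scaling) were closer to 0. The bounds were apart for 4 of the 6, namely Dlg1, Snap29, Sypl and Snap25 (16.9% of all genes in that direction).

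Over the 43 members, the responses in shRNA and vector cultures correlated with a Pearson r of 0.88 and a rank correlation (Spearman rho) of 0.90. Over all genes these were 0.86 and 0.80. The points are genes that share the same 4 libraries, so this describes these cultures only. The response was less negative or more positive in shRNA cultures for most members. The difference of the responses, shRNA minus vector, lay above 0 in 39 of 43 (45.1% of all genes) and below 0 in 4 (54.9%). Its median was 0.15 for presynaptic and 0.12 for postsynaptic members and -0.02 for all genes. No member reached 0.5 in either direction, against 1.11% of all genes upward and 0.855% downward. A difference of 1 or more was reached by 0.111% of all genes upward and 0.126% downward. Unc13a (0.31), Snap29 (0.30), Snap25 (0.28), Syp (0.26) and Dnm1 (0.26) were highest, and Sypl (-0.23), Dlg3 (-0.09), Nlgn3 (-0.06) and Stx1a (-0.01) were the 4 below 0. This difference contains all 4 libraries, so a high value in the untreated vector culture alone would also raise it.

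**Figure D2:**
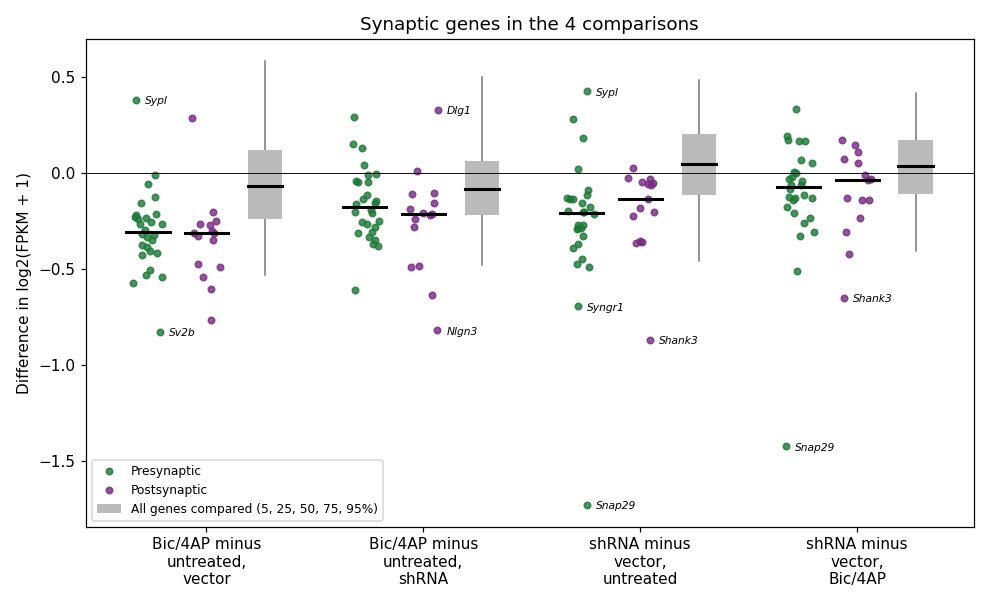
Difference in log2(FPKM + 1) for each of the 43 members compared, in the 4 comparisons, with presynaptic genes in green and postsynaptic genes in purple. Black lines are medians, and the grey boxes and lines give the 5th, 25th, 50th, 75th and 95th percentiles of all 13458 genes. Snap29 stands apart at -1.72 and -1.42 in the shRNA comparisons.

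The next comparison asked how the genes stood with the hairpin in untreated cultures. Of 43 members, 38 lay below 0, shRNA minus vector, against 41.2% of all genes. Medians were -0.21 for presynaptic and -0.13 for postsynaptic members, against 0.05 for all genes and 0.04 for genes with a mean FPKM of at least 20. The postsynaptic median was -0.08 with a pseudocount of 5. The authors' bounds were apart with shRNA lower in 31 members, 23 of 28 presynaptic and 8 of 15 postsynaptic, against 22% of all genes. Level was not matched between the sides or with all genes. Snap29, Shank3 and Syngr1 were 0.5 or more lower (6.98%, against 4.21% of all genes), where median-ratio scaling gave 6 members, and Snap29 alone was past 2-fold (0.661% of all genes). No member was 0.5 or more higher (4.48% of all genes) or 1 or more higher (0.409%).

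Snap29 had the largest difference of any member. Its level was 6.47 FPKM (authors' bounds 6.06 to 6.88) with shRNA and Bic/4AP, 5.10 (4.74 to 5.45) with shRNA untreated, 19.02 (18.3 to 19.7) with vector and Bic/4AP and 19.2 (18.4 to 19.9) with vector untreated. The 2 shRNA cultures were thus low and the 2 vector cultures high and nearly equal, with no overlap of bounds between the backgrounds. The untreated shRNA culture held 26.6% of the vector level, a difference of -1.72, the 5th lowest of all 13458 genes. With Bic/4AP the share was 34.0% and the difference -1.42, the 11th lowest. Snap25, the neuronal member of the family, held 92.2% untreated and 112% with Bic/4AP. In mm9 the gene lies on chromosome 16 from 17406093 to 17430919, where its locus overlaps that of Pi4ka. Pi4ka stood at 24.8, 27.6, 23.4 and 29.6 FPKM in shRNA Bic/4AP, shRNA untreated, vector Bic/4AP and vector untreated cultures and did not show the same split.

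Shank3, a master scaffold gene of excitatory synapses, was next. It stood at 19.98 FPKM with shRNA and Bic/4AP, 19.8 with shRNA untreated, 31.9 with vector and Bic/4AP and 36.9 with vector untreated. The shRNA cultures were again both low, at 53.6% of vector untreated (-0.87) and 62.6% with Bic/4AP (-0.65). The paralogs did not follow: Shank1 and Shank2 held 96.0% and 97.5% of the vector level untreated, with bounds that overlapped. With Bic/4AP they held 104% and 113%.

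Syngr1 encodes synaptogyrin 1, a vesicle membrane protein. It stood at 64.9 FPKM with shRNA and Bic/4AP, 82.96 with shRNA untreated, 92.9 with vector and Bic/4AP and 135 with vector untreated. All 4 values differed beyond their bounds, and both treatment and hairpin went with a lower level. The hairpin differences were -0.69 untreated and -0.51 with Bic/4AP. Syngr3, its relative, lay at -0.20 and -0.13.

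Bsn (-0.49), Nrxn3 (-0.47) and Vamp2 (-0.45) came next in the untreated comparison. Vamp2, at 334 FPKM with shRNA and 456 with vector untreated, had the largest absolute gap of any member, while its paralog Vamp1 was higher with shRNA, at 19.04 FPKM against 15.5 with vector (0.28). With Bic/4AP the synaptobrevins kept these directions, at -0.26 for Vamp2 and 0.33 for Vamp1. Nrxn3, a presynaptic adhesion gene, stood at 14.8 FPKM with shRNA and 20.9 with vector untreated, and Nrxn2 at 61.1 FPKM with shRNA and 75.02 with vector.

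The 5 members above 0 in untreated cultures (58.8% of all genes) were Sypl (0.42), Vamp1 (0.28), Stx1a (0.18), Nlgn1 (0.03) and Cplx2 (0.02), the last 2 of which lay below 0 under median-ratio scaling. Sypl stood at 23.2 FPKM with shRNA and 17.05 with vector. Stx1a, the plasma membrane syntaxin, stood at 80.9 FPKM with shRNA and 71.4 with vector. These first 3 had bounds apart, as did 32.8% of all genes in the upward direction. The 3 plasma membrane or vesicle SNARE genes that form the core fusion complex thus differed in direction: Vamp2 and Snap25 lay below 0 and Stx1a above.

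With Bic/4AP the shRNA and vector cultures lay closer together. Of 43 members, 29 lay below 0, against 43.6% of all genes, and medians were -0.07 for presynaptic and -0.04 for postsynaptic members, against 0.03 for all genes. Under median-ratio scaling these medians were -0.11 and -0.07. The bounds were apart with shRNA lower in 21 members (20.9% of all genes) and higher in 10 (28.2%). The same 3 genes, Snap29, Shank3 and Syngr1, were 0.5 or more lower (6.98%, against 3.11% of all genes), Snap29 by more than 1 (0.528%). None was 0.5 or more higher (2.87%) or 1 or more higher (0.186%). Nlgn3 followed at -0.42, with 7.88 FPKM with shRNA and 10.9 with vector, and then Bsn at -0.33. On the higher side were 14 members (56.4% of all genes), led by Vamp1 (0.33), Sypl (0.19), Cplx2 (0.17), Stx1a (0.17) and Shank2 (0.17).

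All 29 members below 0 with Bic/4AP were also below 0 untreated, as were 31.8% of all genes in both. The Pearson r between the hairpin differences with and without Bic/4AP, which share no library, was 0.95 over the 43 members and 0.89 without Snap29. Over all genes it was 0.72. The rank correlation lay closer together, at 0.85 over the members, 0.84 without Snap29 and 0.75 over all genes. Of the members, 9 lay below 0 untreated and above 0 with Bic/4AP. Among these, the bounds as deposited were apart in opposite directions for Snap25, Syp and Dlg4.

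**Figure D3:**
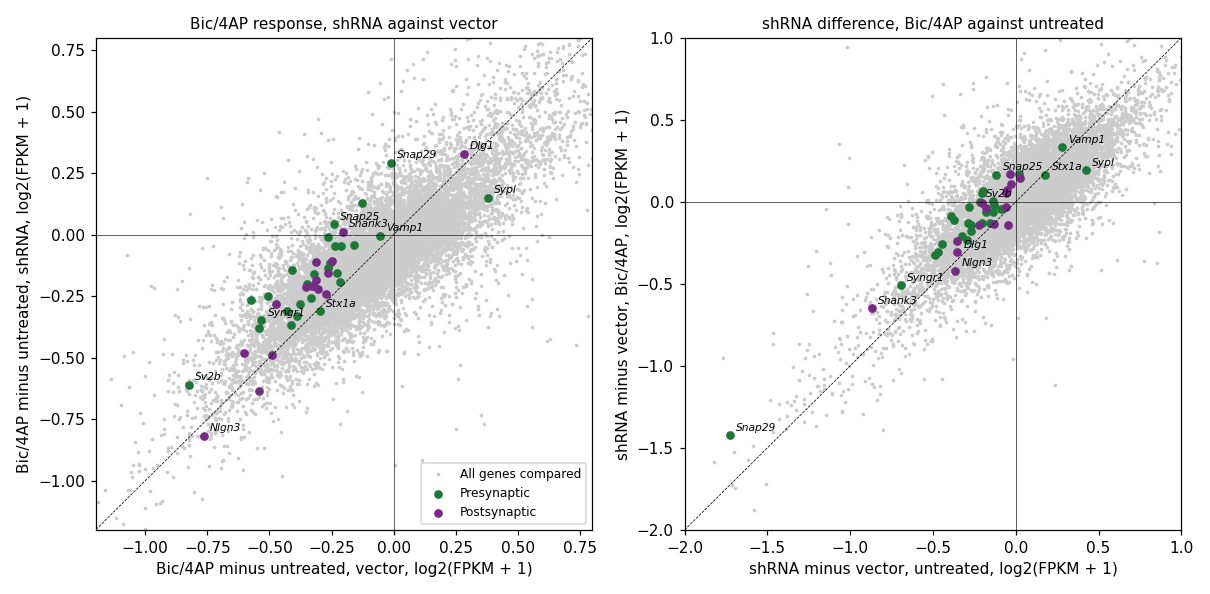
Bic/4AP responses in shRNA against vector cultures (left) and shRNA minus vector differences with Bic/4AP against untreated (right), in log2(FPKM + 1), with all genes compared in grey and the dashed line marking equal values. On the left most synaptic genes sit above the line below 0 on both axes, and on the right Snap29, Shank3 and Syngr1 trail off toward the lower left.

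Presynaptic and postsynaptic members were set side by side. Their medians were within 0.01 of each other for Bic/4AP in vector cultures and lay at -0.21 and -0.13 for the hairpin untreated, where bounds were apart and lower in 23 of 28 presynaptic and 8 of 15 postsynaptic members. Presynaptic differences there ran over -1.72 to 0.42 and postsynaptic ones over -0.87 to 0.03. Presynaptic and postsynaptic members were not matched for level, on which the width of the bounds depends. Within families the members often parted, as the plot by family shows. Calcium sensors Syt1, Syt2 and Syt7 lay at -0.14, -0.28 and -0.20 for the hairpin in untreated cultures. Complexins, which clamp the SNARE complex, lay at -0.18 (Cplx1) and 0.02 (Cplx2). The Dlg genes lay at -0.35 (Dlg1), -0.03 (Dlg2), -0.05 (Dlg3) and -0.05 (Dlg4), and the bounds were apart for Dlg1 and Dlg4. Gphn, the gene of the inhibitory scaffold gephyrin, stood at 23.03, 26.99, 25.5 and 31.7 FPKM in shRNA Bic/4AP, shRNA untreated, vector Bic/4AP and vector untreated cultures, and Dlg3 and the 4 Dlgap genes had the same order of cultures.

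Other presynaptic members act at the vesicle and in its fusion and retrieval. Rab3a, the vesicle GTPase gene, stood at 232 FPKM with shRNA and Bic/4AP, 268 with shRNA untreated, 235 with vector and Bic/4AP and 294 with vector untreated. Snap91, which helps to rebuild vesicles by endocytosis, stood at 99.3, 114, 109 and 126 FPKM in the same order of cultures. In both, each treated culture was below its untreated partner, at -0.21 and -0.32 for Rab3a and at -0.19 and -0.22 for Snap91 in shRNA and vector cultures. Cplx1 stood at 258, 266, 269 and 300.4 FPKM and Cplx2 at 137, 157, 121 and 155 FPKM in that order of cultures. The complexins were both lower with Bic/4AP, apart from Cplx1 in shRNA cultures under median-ratio scaling (0.05), and only Cplx2 had bounds apart with shRNA higher, which was in the Bic/4AP cultures.

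The active zone members shared the order of the whole group. Rims2, a scaffold that recruits calcium channels, stood at 3.93 FPKM with shRNA and Bic/4AP, 5.11 with shRNA untreated, 4.69 with vector and Bic/4AP and 6.65 with vector untreated. Pclo, the gene of Piccolo, stood at 7.23, 8.21, 8.002 and 10.2 FPKM in that order of cultures, and Bsn at 10.4, 13.8, 13.2 and 19.7 FPKM. Unc13a stood at 24.9, 30.2, 26.5 and 39.9 FPKM. For Rims2, Pclo, Bsn and Unc13a alike the untreated vector culture was highest and the shRNA culture with Bic/4AP lowest, with bounds apart in all 4 comparisons.

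Among the Dlgap genes, Dlgap3 stood at 31.2 FPKM with shRNA and Bic/4AP, 38.2 with shRNA untreated, 31.5 with vector and Bic/4AP and 44.1 with vector untreated. Dlgap4 stood at 41.9, 49.8, 42.9 and 51.9 FPKM in that order, and Dlgap2 at 3.63, 5.49, 4.07 and 6.13 FPKM. All 4 Dlgap genes were lower with Bic/4AP in both backgrounds, at -0.24 (Dlgap4) to -0.49 (Dlgap2) in shRNA cultures and -0.27 (Dlgap4) to -0.60 (Dlgap1) in vector cultures. For the hairpin untreated the bounds were apart for Dlgap1 (-0.36) and Dlgap3 (-0.20) and overlapped for Dlgap2 (-0.13) and Dlgap4 (-0.06). The neuroligins differed too: Nlgn1 stood at 18.6, 21.7, 16.7 and 21.3 FPKM and Nlgn2 at 47.4, 51.1, 48.7 and 58.1 FPKM in shRNA Bic/4AP, shRNA untreated, vector Bic/4AP and vector untreated cultures. Nlgn1 with Bic/4AP was thus higher with shRNA (0.14, bounds apart), where Nlgn3 was lower.

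Some members near the ends of these comparisons have further values. Dlg3 stood at 22.3 FPKM with shRNA and Bic/4AP, 35.2 with shRNA untreated, 24.7 with vector and Bic/4AP and 36.4 with vector untreated. Dlgap1 stood at 28.4, 40.01, 33.6 and 51.5 FPKM in that order of cultures, and Dnm1 at 102, 121, 110.2 and 157 FPKM. In these 3 genes both treated cultures lay below both untreated ones. Sypl stood at 25.8, 23.2, 22.5 and 17.05 FPKM in shRNA Bic/4AP, shRNA untreated, vector Bic/4AP and vector untreated cultures, and Vamp1 at 18.98, 19.04, 14.9 and 15.5 FPKM. Both genes were higher in each shRNA culture than in the vector culture with the same treatment. Stx1a stood at 65.03, 80.9, 57.8 and 71.4 FPKM in that order, Shank2 at 14.2, 15.4, 12.6 and 15.8 FPKM and Syt2 at 2.61, 2.30, 2.69 and 3.02 FPKM. All 3 had their lowest value outside the culture with shRNA and Bic/4AP.

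**Figure D4:**
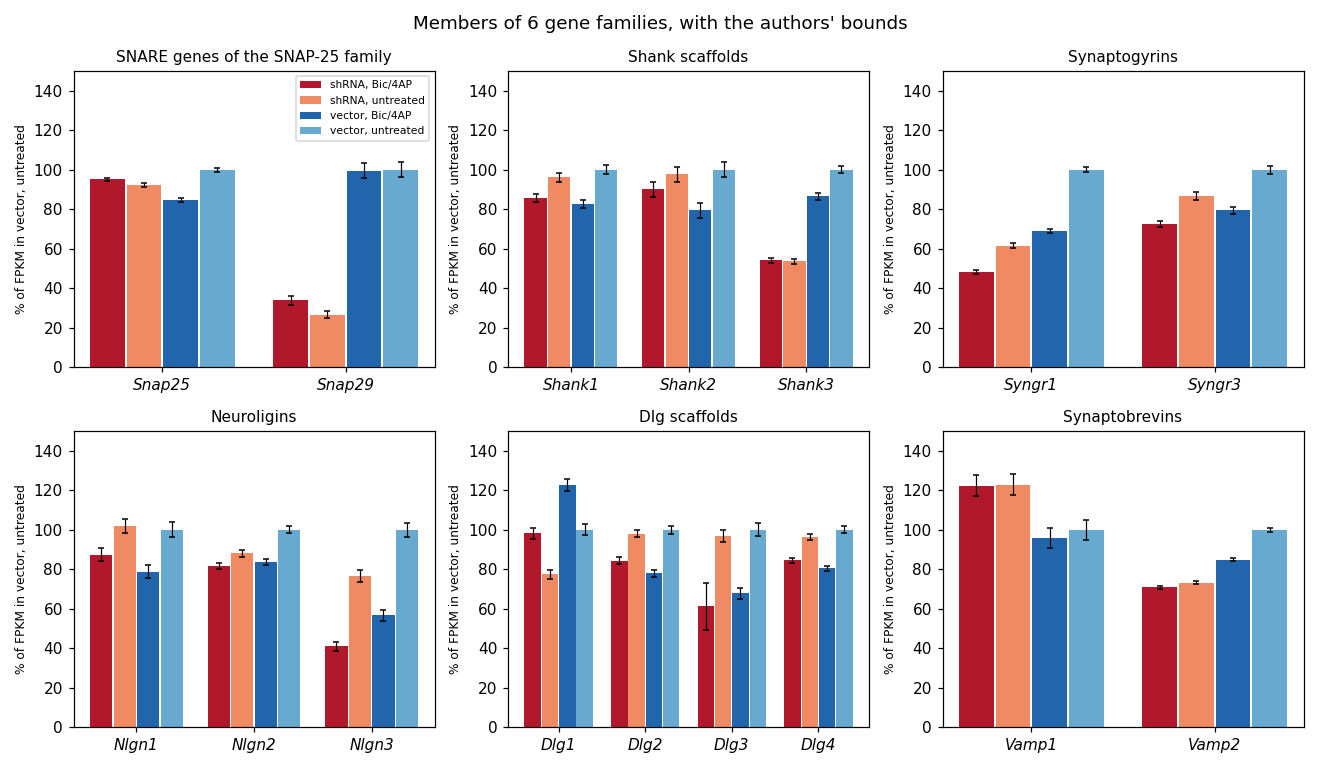
FPKM of members of 6 families as a percentage of the untreated vector culture, with bars for shRNA Bic/4AP, shRNA untreated, vector Bic/4AP and vector untreated and error bars for the authors' bounds within 1 library. Snap29 and Shank3 are low in both shRNA cultures while Snap25, Shank1 and Shank2 are not, and Dlg1 is the one Dlg gene above its untreated level with Bic/4AP in both backgrounds.

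Genes of the same pathways outside the 44 were read beside them, with calls meaning a difference of 0.5 or more. Of 60 other presynaptic genes listed, 57 were compared. With Bic/4AP in vector cultures 46 lay below 0, 6 of them by 0.5 or more, while 2 were 0.5 or more higher (median -0.28). In shRNA cultures the counts were 46, 2 and 2 (median -0.17). The synaptotagmin gene Syt4, known to be induced by activity, was the highest, at 1.45 in vector and 2.05 in shRNA cultures. With the hairpin untreated, 43 lay below 0, 10 of them by 0.5 or more (median -0.20), led by Napb (-1.39), a cofactor that recycles SNARE complexes. With Bic/4AP Napb stood at -1.39, with 34 of 57 below 0 and 7 by 0.5 or more (median -0.05).

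Of 39 other postsynaptic genes listed, 36 were compared. With Bic/4AP 29 lay below 0 in vector cultures, 7 of them by 0.5 or more, against 5 that were 0.5 or more higher (median -0.35). In shRNA cultures 27 lay below 0, with 1 lower and 5 higher by 0.5 or more (median -0.17). The activity-induced genes Arc (4.81 in vector and 5.33 in shRNA cultures) and Homer1 (2.21 and 2.70) were highest, unlike any postsynaptic member. For the hairpin, 28 lay below 0 untreated (median -0.12) and 13 with Bic/4AP (median 0.08). None of the 36 was 0.5 or more lower in either state, so Shank3 was further from 0 than any of them on that side.

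Markers of the cells in culture were read over their whole lists. All 14 measured pan-neuronal genes outside the synapse were expressed, and their summed FPKM was 2998, 2869, 2903 and 3036 in shRNA Bic/4AP, shRNA untreated, vector Bic/4AP and vector untreated cultures. Their median difference was -0.34 for Bic/4AP in vector, -0.18 in shRNA, -0.14 for the hairpin untreated and 0.03 with Bic/4AP, of the same sign as the synaptic medians in the first 3. Excitatory neuron markers (9 of 9 compared) had medians of -0.36, -0.11, -0.20 and 0.06 in those comparisons, and summed to 427, 491, 488 and 676 FPKM. Inhibitory neuron markers (16 of 16) had medians of -0.05, 0.15, -0.44 and -0.25, and summed to 918, 651, 1280.4 and 1288 FPKM. Pan-neuronal and excitatory medians were thus lower where the synaptic medians were lower, apart from the hairpin comparison with Bic/4AP. The part of neuronal markers in the result was not tested.

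Among other cells, the 10 astrocyte markers summed to 3331, 2969.5, 3341 and 3110.4 FPKM in the same order of cultures, with medians of 0.07, 0.08, 0.00 and -0.05 in the same 4 comparisons. Microglia markers (11 of 12 compared) summed to 33.0, 28.6, 62.9 and 61.0 FPKM, lower in both shRNA cultures, with medians of -0.05, 0.02, -0.56 and -0.85. Oligodendrocyte lineage markers (8 of 11) summed to 121, 127, 144 and 141 FPKM, with medians of -0.03, -0.08, -0.34 and -0.39. Endothelial and mural markers (3 of 8) summed to 58.0, 63.7, 80.4 and 70.5 FPKM, with medians of 0.04, -0.16, -0.19 and -0.52, and Cldn5, an endothelial marker, was listed at 0 in the vector culture with Bic/4AP. Fibroblast and meningeal markers (6 of 6) summed to 32.7, 31.6, 34.7 and 33.1 FPKM, with medians of 0.10, 0.16, -0.31 and -0.06. Every other marker was above 0 in each library, and the part of these cells in the synaptic differences was not tested.

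Words of 7 bases in annotated 3′ UTRs were read for the hairpin comparisons. Over genes other than the 44, the word with the lowest standardized mean difference of 15921 searched was ACAAGTG, with the untreated shRNA and vector cultures compared. It was chosen after the values were seen, on that comparison. It occurs in the 3′ UTR of 12.9% of 11634 such genes. Their median difference was -0.05 with the word and 0.06 without it untreated, and -0.07 and 0.04 in the Bic/4AP cultures, which did not enter the choice. Genes with the word had longer 3′ UTRs, with a median of 2706 nt against 1263 nt.

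Of 43 members compared, 8 hold ACAAGTG (18.6%): Snap29, Syt2, Sv2a, Dlg1, Dlg2, Dlgap4, Nlgn3 and Nrxn3. Their median was -0.32 untreated and -0.24 with Bic/4AP, against -0.18 and -0.06 for the 35 without it. Snap29 and Nlgn3 hold it 2 times each, and the first 6 bases of the word occur 4 times in the 2527 nt of the Snap29 3′ UTR. Shank3 and Syngr1 do not hold it, and Dlg2 (-0.03) and Dlgap4 (-0.06) hold it and lay near 0 untreated. In members the median 3′ UTR was 2937.5 nt with the word and 2512 nt without it. Among other genes these were 2706 nt and 1263 nt, and the shares holding the word were not matched for length. The sites of the 3 genes with the largest hairpin differences among the 8 are shown with the word in capitals, from GENCODE M21 transcripts with GRCm38 plus-strand coordinates.
Snap29, chr16:17428369-17428395: gtcacttattACAAGTGtataatataa
Snap29, chr16:17430592-17430618: tgctaccaaaACAAGTGcattgtcctc
Nrxn3, chr12:90333528-90333554: taacacaaccACAAGTGgtcacacaag
Nlgn3, chrX:101323366-101323392: tgcaagagtaACAAGTGctcttaacta
Nlgn3, chrX:101323836-101323862: ctactatgtaACAAGTGtgctatgacc
The reverse complement of bases 2 to 8 of the labelled guide strand, ACAAACT, occurs in 10 members compared, with a median of -0.25 untreated against -0.20 for the other 33, and not in Snap29, Shank3 or Syngr1. Over the other genes its medians were 0.04 with and 0.05 without it. That word takes in positions 19 and 20 of the labelled target, where the target differs from Kdm6b. These counts therefore hold for the sequence as labelled only, and the Kdm6b version of the word was not searched. A match is a description of sequence only.

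Promoters of 33 members were matched by symbol in RefSeq (GRCm38.p6, the stretch around each gene's start), since most members were lower together with Bic/4AP. The cyclic AMP response element TGACGTCA, which is its own reverse complement, was held by Syn1 alone (3.03%, against 2.03% of all 27025 genes with a promoter). The word CACGTG, also its own reverse complement, was held by 3 members (9.09%, against 8.09%). The Egr-type word GCGGGGGCG, searched on both strands, was held by Syn2, Syngr1, Cplx1 and Shank3 (12.1%, against 3.31%). The shares over all genes include genes not expressed here, and base composition of the promoters was not matched. The Syn1 element starts 159 bases before the start, and it is printed here in capitals with that of Syn2, 41 bases before the start.
Syn1, minus strand, chrX:20921050-20921097: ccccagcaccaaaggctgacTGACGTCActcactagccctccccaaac
Syn2, plus strand, chr6:115134841-115134889: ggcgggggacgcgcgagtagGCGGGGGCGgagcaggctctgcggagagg
Syn1 and Syn2 lay at -0.23 and -0.26 for Bic/4AP in vector cultures and at -0.16 and -0.13 in shRNA cultures. The other holders of the Egr-type word lay at -0.53 (Syngr1), -0.16 (Cplx1) and -0.21 (Shank3) in vector cultures and at -0.35, -0.04 and 0.01 in shRNA cultures. The loci of 7 members overlap those of 9 other genes in the tables, among them Araf and Timp1 at Syn1 and Timp3 at Syn3. Araf stood at 24.0 FPKM with shRNA and Bic/4AP, 28.5 with shRNA untreated, 82.8 with vector and Bic/4AP and 94.5 with vector untreated, a split between backgrounds that Syn1 did not show. Whether reads were assigned by strand is not given in the sources used here, so values of overlapping genes carry that uncertainty.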

How the data were processed

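Poly(A)-selected RNA of 4 cultures was sequenced with the Illumina TruSeq kit, per the labels' protocols. Tools listed in the submitters' processing notes are TopHat2 2.0.8b, Cufflinks 2.0.2 and CASAVA 1.8, with build mm9. Their roles and the annotation are not given in the sources used here. The authors deposited FPKM per gene with a lower and an upper bound, per the file headers. No read totals were at hand, so depth is unknown. At 5 FPKM and above, the median distance to the upper bound was 4.33%, 4.21%, 4.48% and 4.31% of the value in shRNA Bic/4AP, shRNA untreated, vector Bic/4AP and vector untreated libraries. The bounds cover error within 1 library only.

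FPKM was added up over rows that share a symbol. Genes with a failed row and small RNA genes, recognised by symbol, were left out. Each member has 1 row in each table. Differences were taken in log2(FPKM + 1), Bic/4AP minus untreated or shRNA minus vector, with FPKM as deposited and a filter of 1 FPKM in at least 1 library. This scale understates differences of weakly expressed genes. There was no test, because each condition has 1 library. Start positions were taken to count from 0 and are given from 1. For words, each gene's longest 3′ UTR of at least 50 nt in GENCODE M21 was used, which 86.8% of genes compared have. Words had to occur in at least 100 genes, and each was scored by the mean difference of its genes, capped at 2 in size. The differencing was tested on simulated data. Python 3.11.15, pandas 2.3.3 and numpy 2.4.6 were used.

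The 44 members and all lists were chosen with earlier results of these data known. Full values are given for the 5 lowest and 5 highest members of each comparison and for members of the same family, and for other lists the 2 lowest and 2 highest genes may be named. The genes compared with a mean FPKM of at least 20, the word ACAAGTG and the overlapping loci were added after the data were seen. Alternatives were a pseudocount of 0.1 or 5, no filter or 5 FPKM, 3 scalings, the highest row per symbol and non-overlapping bounds.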

Additional observations from a re-analysis of the deposited data

Results flagged for a closer look

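For 3 members the authors' bounds, as deposited, were apart in opposite directions between the backgrounds or treatments. The difference was not tested, since each value comes from 1 culture. Snap25 with Bic/4AP was higher than untreated in shRNA cultures and lower in vector cultures, a difference of responses of 0.28. The same 0.28 is its shRNA difference with Bic/4AP, which lay above 0, minus that untreated, which lay below 0. Syp was higher with shRNA than with vector in Bic/4AP cultures and lower untreated, a difference of 0.26. Dlg4 had the same pattern with a difference of 0.13. The bounds were not compared under the 3 scalings. Snap25 with Bic/4AP held 103% of the untreated level in shRNA cultures. With Bic/4AP, shRNA cultures held 105% of the vector level for Syp and for Dlg4. Library factors ran over 0.959 to 1.05 under median-ratio scaling and 0.987 to 1.02 under common-sum scaling. These gaps are of similar size, so the calls can depend on the scaling.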

How the results depend on the processing

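Of 164 values of medians and counts under the alternatives, 160 stayed within 0.1 (medians) or 1.5 times (counts) of the reported value, limits set after the data were seen, and no median took the other sign. The exceptions were counts of members 0.5 or more lower. For Bic/4AP in vector cultures the count of 8 was 5 with a pseudocount of 5 and 3 under median-ratio scaling. For the hairpin untreated the count of 3 was 6 under median-ratio scaling, and for Bic/4AP in shRNA cultures the count of 3 was 5 under common-sum scaling. Taking the highest row per symbol could not move any of these values, because each member has 1 row. The 160 thus include values fixed by construction. The limit of 0.1 is wider than the hairpin medians with Bic/4AP (-0.07 and -0.04). It also passes the presynaptic median for Bic/4AP in shRNA cultures, which was -0.18 as deposited and -0.09 under median-ratio scaling. The pseudocount of 5 lowers differences of weakly expressed genes by construction, and the scalings shift all genes together. Over the alternatives the number below 0 ranged over 39 to 42 (Bic/4AP, vector), 32 to 38 (Bic/4AP, shRNA), 36 to 40 (hairpin, untreated) and 27 to 31 (hairpin, Bic/4AP). With Bic/4AP, the hairpin difference lay below 0 for Syt1 and Sv2b under each of the 3 scalings. No paired analysis was possible because each condition has 1 library and the labels give no replicate numbers. The authors' bounds hold error within a library, and the variation between cultures was not measured. Depth is unknown, so no limit from it can be given.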
